A study of Mus musculus with 23 samples.

Results

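The data described here are the 8 hypothalamus (HT) arrays of a diet study in mice, 4 from animals on standard chow (SC) and 4 from animals that could choose between chow and a chocolate mixture (CM). They are 8 of the 23 arrays of the series, taken by the region and diet in the sample labels, with 1 array from each mouse. All mice were female C57BL/6 animals, 5 weeks old at the start, and the diets lasted 8 weeks. Every animal then went through a test battery of 11 days before dissection, in which the SC mice also met the chocolate mixture during restricted sessions, so that the SC group was not free of it. The SC mice are L52, L54, L56 and L58 and the CM mice O52, O54, O56 and O58. The 4 CM arrays and the SC array L58 lay on slide 2, and the SC arrays L52, L54 and L56 on slide 3. Within HT, diet and slide can therefore be told apart only through L58, and that array is shown on its own throughout.

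The hypothalamus joins the brain to the endocrine system. Its arcuate neurons read leptin, insulin and ghrelin and release peptides that raise feeding (Agrp, Npy) or lower it (Pomc, Cartpt). Lateral neurons make hypocretin (Hcrt) and melanin-concentrating hormone (Pmch), which act on arousal and feeding, and neurons further forward and towards the midline make oxytocin (Oxt), vasopressin (Avp), corticotropin-releasing hormone (Crh) and thyrotropin-releasing hormone (Trh).

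Values are log2 signals of 1 array each after the normalization of the whole series, and a difference of 1 is a doubling. A row is 1 transcript identifier, and a gene can have several. A row was called where limma's adjusted p over all 31395 rows was under 0.05 and the difference reached 1.5-fold, and rose and fell are written only of such rows. Rows are bright where their mean over the 8 arrays was in the top 25% (log2 of at least 10.39) and their spots were well above background on all 8, which held for 7849 rows. Of 59305 spots outside the controls, 38846 to 42232 were well above background on an HT array. A signal of one probe is not set against that of another, since probes differ in brightness for equal amounts of RNA.

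Few rows differed between the diets in HT. Of all rows, 56 were called (0.178% of 31395), 4 higher in CM (0.0127%) and 52 lower (0.166%). An adjusted p under 0.05 with no minimum fold was reached by 135 rows (0.43%), and an unadjusted p under 0.05 by 4154 (13.2%), 6.26% of the rows upward and 6.97% downward. The 4 CM arrays lay apart from all 4 SC arrays in 2124 rows (6.77%). Only 5 of the bright rows were called (0.0637%), all of them lower in CM, and 9 had an adjusted p under 0.05 (0.115%). The median absolute difference was 0.101 over all rows and 0.063 over the bright rows, against median standard errors of 0.113 and 0.078. The fit weighted the arrays, by 0.753, 0.969, 1.737 and 0.647 in SC (L52, L54, L56, L58) and 1.309, 2.268, 2.316 and 1.373 in CM. L58 thus counted least, and fitted differences can depart from differences of means. The count of 56 depended on the model, since limma called 0 rows without array weights (1893 at an unadjusted p under 0.05) and 0 with the slide as a fixed term (845, or 2.69%). It also depended on single arrays, with 0 rows called without O54, 1 without L54, 1 without L56, 100 without L52 and 195 without L58.

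The 60-base probes of 6 genes are shown here because the results below turn on them. They are Avp, whose level differed widely between animals, the bright called gene Spint2, the fatty acid receptor Ffar3 and 3 of the called olfactory receptors. Each is written 5′ to 3′ in the sense of the transcript, with no base marked, as the array design gives it.
Avp: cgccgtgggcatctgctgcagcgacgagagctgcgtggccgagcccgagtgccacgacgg
Spint2: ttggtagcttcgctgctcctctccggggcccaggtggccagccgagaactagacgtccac
Ffar3: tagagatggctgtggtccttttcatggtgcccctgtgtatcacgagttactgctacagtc
Olfr94: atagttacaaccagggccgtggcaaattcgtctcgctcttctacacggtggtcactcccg
Olfr1349: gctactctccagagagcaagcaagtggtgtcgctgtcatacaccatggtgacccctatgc
Olfr141: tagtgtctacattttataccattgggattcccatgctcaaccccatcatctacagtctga
In mm9 coordinates on the minus strand they lie at chr2:130406552-130406817 (Avp), chr7:30066532-30066591 (Spint2), chr7:31640309-31640368 (Ffar3), chr17:37333837-37333896 (Olfr94), chr7:6467259-6467318 (Olfr1349) and chr2:86646284-86646343 (Olfr141). The Avp probe covers 266 genome bases with 60 bases of sequence, so it crosses a gap in the genome. The other 5 probes each cover 60 genome bases without a gap. Which exon each lies in was not determined, because no mm9 annotation was used here.

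The labels name the tissue as thalamic, and the study as hypothalamus. Markers of both were high. In the SC arrays the mean level of Pmch was 15.16 in HT and 7.13 in frontal cortex, and that of the thalamic kinase gene Prkcd was 13.10 and 8.36. Tcf7l2, a transcription factor of thalamic neurons, was at 11.82 in HT and 7.56 in frontal cortex. The hypothalamic marker Otp and the pituitary markers Prl, Cga, Tshb and Pitx1 had no row to check. The signal of the regional markers differed between animals. The mean of 11 hypothalamic markers was 10.49, 9.21, 11.28 and 12.59 (SC: L52, L54, L56, L58) and 10.61, 11.60, 11.89 and 9.99 (CM: O52, O54, O56, O58). That of 8 thalamic markers was 12.01, 12.26, 11.82 and 10.71 in SC and 12.37, 11.70, 11.71 and 12.21 in CM, lowest in L58. Striatal markers (8 genes) stood at 9.27, 10.67, 9.15 and 9.41 in SC and at 9.06, 9.13, 9.11 and 9.84 in CM, highest in L54 and then O58. Cortical markers (8 genes) stood at 6.72, 6.73, 7.52 and 6.88 in SC and at 6.65, 6.81, 6.59 and 6.73 in CM, with L56 above the rest. In bulk tissue fewer cells of a type and less RNA per cell cannot be told apart.

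Among the bright named genes, 2 were called. Itpka and Spint2 fell in CM. Itpka encodes a kinase of inositol trisphosphate that binds actin in the dendritic spines of forebrain neurons. Its signal was 11.35, 12.85, 12.21 and 11.35 in SC and 10.26, 10.38, 10.48 and 11.81 in CM. In O52, O54 and O56 it was below every SC array, while in O58 it was above L52 and L58, so the groups overlapped. The SC mean was 11.94 ± 0.73 and the CM mean 10.73 ± 0.72 (SD, n = 4 each), a difference of -1.21. With array weights the fitted difference was -1.41 (SE 0.27), a level 2.65-fold lower, with limma's adjusted p = 0.0312. The probe lies at chr2:119576896-119576955 (mm9, plus strand). Against L58 alone, on the same slide, the CM mean differed by -0.62, and with the slide as a fixed term the difference was -1.21 (SE 0.58).

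Spint2 encodes an inhibitor of serine proteases that sits in the membrane. The row gave 11.47, 11.53, 11.46 and 11.21 in SC and 10.91, 10.63, 11.03 and 10.66 in CM. All 4 CM arrays were below all 4 SC arrays, L58 included. The means were 11.42 ± 0.14 and 10.81 ± 0.19 (SD, n = 4), with a fitted difference of -0.63 (SE 0.13, limma adjusted p = 0.0357), or 1.55-fold. The CM mean differed by -0.41 from L58 and by -0.68 from the 3 SC arrays of slide 3. With the slide as a fixed term the difference was -0.30 (SE 0.25). A second Spint2 row, of another transcript, differed by 0.01 (limma adjusted p = 0.995), so the 2 rows of this gene disagreed.

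The other named bright genes with an adjusted p under 0.05 were Slc38a2, Mfap3, Stim1 and Rbfox3. All 4 were under 1.5-fold, and their 4 CM arrays lay apart from all 4 SC arrays, which over the bright rows held for 566 (7.21%), 3.61% in each direction. Mfap3, Stim1 and Rbfox3 were chosen after their values had been seen. Slc38a2, a sodium-coupled transporter of neutral amino acids such as glutamine, was at 11.87, 11.70, 12.06 and 11.99 in SC and 12.09, 12.39, 12.40 and 12.59 in CM, higher by 0.45 (SE 0.10, limma adjusted p = 0.0481). Mfap3, for a protein associated with microfibrils, was at 10.31, 10.38, 10.25 and 10.48 in SC and 10.66, 10.64 and 10.62 in the CM arrays O52, O54 and O56, with O58 above these, higher by 0.32 (SE 0.06, limma adjusted p = 0.0261). L58 was the nearest SC array to the CM arrays for Mfap3, and L56 for Slc38a2. In a fit that held a slide term the differences were 0.29 (SE 0.20) for Slc38a2 and 0.10 (SE 0.11) for Mfap3.

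Stim1, the sensor of calcium in the endoplasmic reticulum that opens store-operated channels, had 13.04, 13.10, 12.98 and 13.16 in SC and 12.71, 12.78, 12.89 and 12.69 in CM. The difference was -0.26 (SE 0.06, limma adjusted p = 0.0462), and L58 was the SC array farthest from CM. Rbfox3, which encodes the splicing factor known as the neuronal antigen NeuN, had 10.85, 11.11, 10.94 and 10.68 in SC and 10.54, 10.53, 10.55 and 10.46 in CM, a difference of -0.40 (SE 0.09, limma adjusted p = 0.0444). In a fit that held a slide term the difference was -0.35 (SE 0.12) for Stim1 and 0.002 (SE 0.16) for Rbfox3. L58 was the lowest SC array for Rbfox3, and the brighter row of this gene differed by only -0.13 (limma adjusted p = 0.492).

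**Figure D1:**
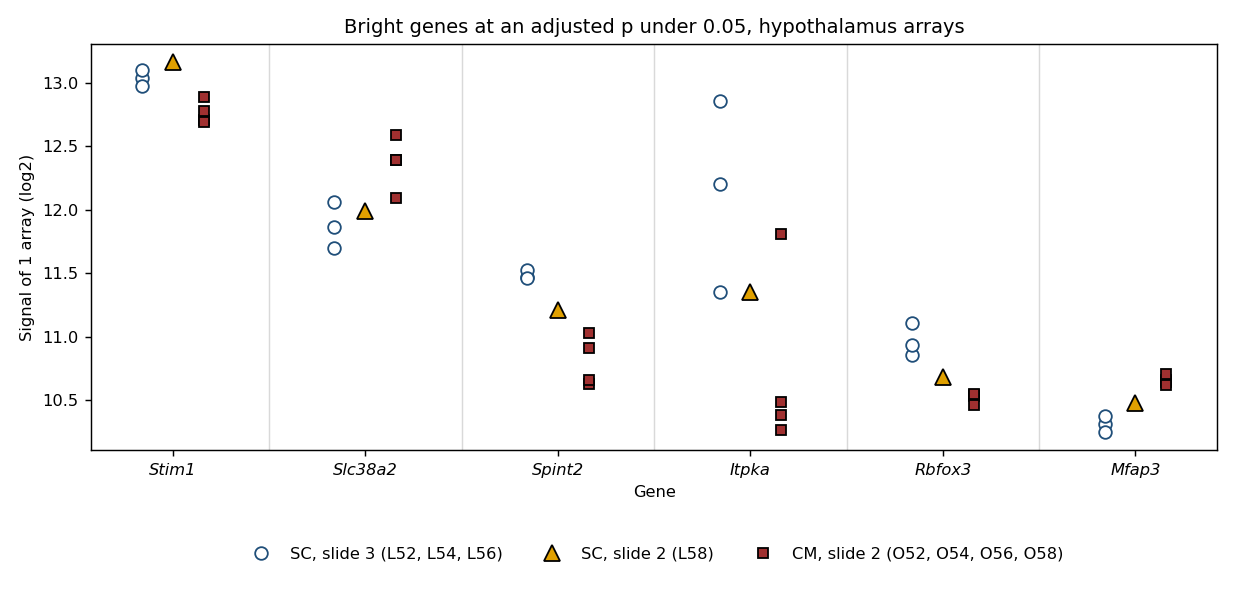
Signal (log2, y axis) of the 6 named bright genes with an adjusted p under 0.05 in each of the 8 HT arrays, with the SC arrays of slide 3 as open circles, the SC array L58 of slide 2 as triangles and the CM arrays of slide 2 as squares. CM squares lie apart from all SC symbols for every gene but Itpka, where O58 at 11.81 lies above L52 and L58.

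Among bright named rows the large differences downward included Itpka, Arpp21, Nrgn, Oacyl, Cracdl, Icam5 and Spint2. Of these, Itpka and Spint2 were called. Nrgn, the calmodulin-binding neurogranin of forebrain neurons, gave 10.72, 11.44, 11.68 and 10.98 in SC and 10.20, 10.61, 10.54 and 10.77 in CM, a difference of -0.80 (limma adjusted p = 0.0608), which was 0.05 (SE 0.35) with the slide as a fixed term. Oacyl gave 13.11, 13.83, 13.62 and 13.38 in SC and 12.83, 12.89, 12.72 and 12.52 in CM, where the groups did not overlap, with a difference of -0.78 (limma adjusted p = 0.0575), and of -0.57 (SE 0.36) with the slide as a fixed term. 3 more bright rows with CM below all SC arrays were Synpo (-0.44), which encodes an actin-associated protein of dendritic spines, the orphan receptor gene Gpr26 (-0.43) and Git2 (-0.41).

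Several of these genes are known from forebrain neurons and were high in SC arrays L54 or L56 and in CM array O58. L54 and O58 had the highest striatal markers, and L56 the highest cortical markers. Arpp21, a phosphoprotein gene of striatal and cortical neurons regulated by cyclic AMP, was at 9.97, 12.60, 11.05 and 10.46 in SC and 9.91, 9.84, 9.87 and 11.64 in CM, highest in L54 and then O58. The potassium channel gene Kcnh3 had 9.62, 11.36, 11.46 and 9.94 in SC and 9.39, 9.23, 9.36 and 10.57 in CM, highest in L56 and then L54, with a difference of -1.30 (limma adjusted p = 0.0547). Nrgn and Synpo were highest in L56 as well.
Crym, a binding protein for thyroid hormone, was the most uneven of them, with 13.13 in L54 and 12.23 in O58 and values from 8.86 to 11.30 in the other 6. All 8 striatal markers and all 8 cortical markers had a lower fitted level in CM, and none of them was called. The part of these markers in the values of Itpka and the other genes was not tested. With L54 and O58 both left out, a choice made after seeing the data, 8 rows were called, Itpka (-1.34) and the postsynaptic gene Ddn (-0.95) among them. Without L56, 1 row was called, and it was neither of these.

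**Figure D2:**
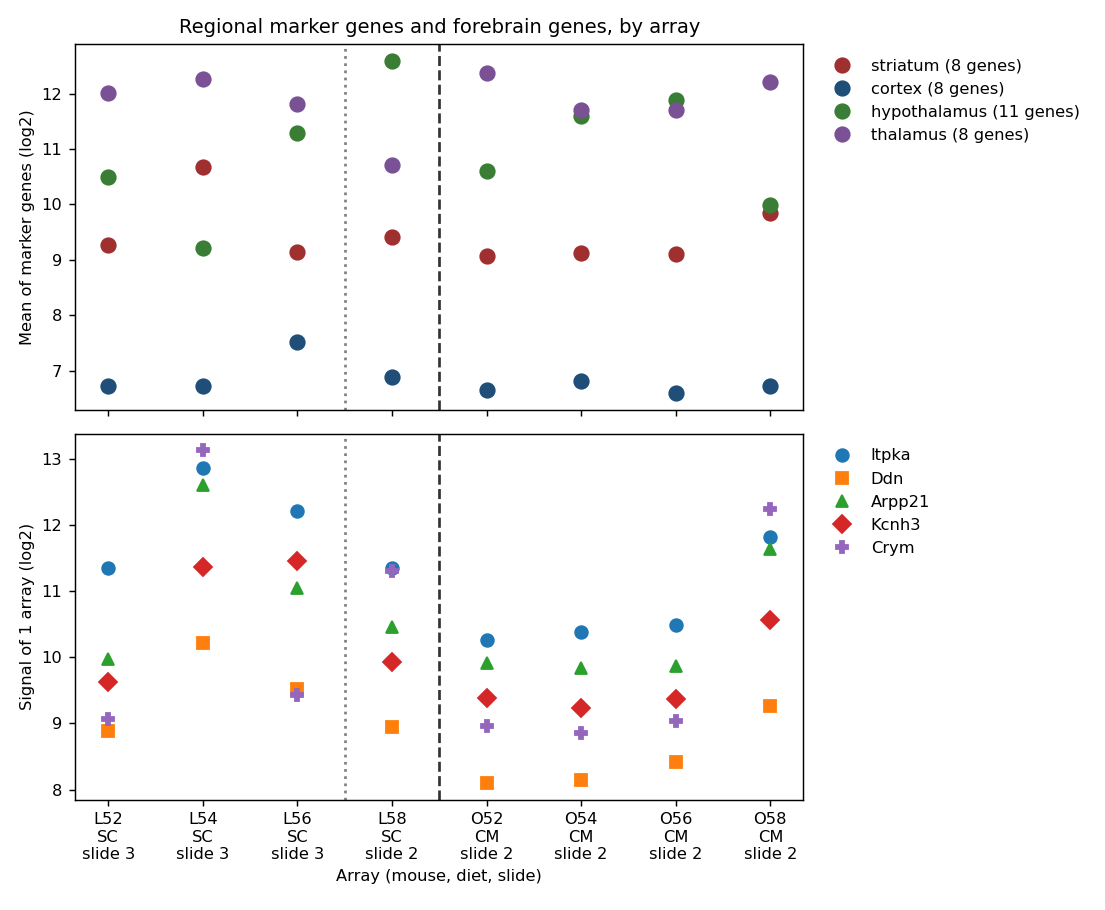
Upper panel, mean log2 signal of the striatal, cortical, hypothalamic and thalamic marker genes in each HT array; lower panel, log2 signal of Itpka, Ddn, Arpp21, Kcnh3 and Crym in the same arrays. The dotted line separates the SC arrays of slide 3 from L58 and the dashed line L58 from the CM arrays, and the striatal mean is highest in L54 (10.67) and O58 (9.84), where Crym and Arpp21 are highest too.

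The largest bright differences upward were led by peptide genes, and none was called. Oxt gave 13.84, 9.29, 15.38 and 16.72 in SC and 13.73, 15.52, 15.80 and 14.05 in CM, so the fitted difference of 1.13 had an SE of 1.12 (limma adjusted p = 0.729). Avp ran from 7.87 in L54 to 14.31 in L58, with 9.02 and 13.50 in the other SC arrays and 9.73, 13.57, 12.77 and 11.29 in CM, and differed by 0.71 (SE 1.25). Trh differed by 0.81 (SE 0.59). For all 3 genes L54 was the lowest and L58 the highest of the 8 arrays, so the spread within SC exceeded the distance between the diets.

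Of the 283 bright rows that were higher in all CM arrays than in all SC arrays, the 5 named rows with the largest differences were Olfr173 (difference 0.72), Zfp946 (0.47), Klhl18 (0.47), Clk1 (0.45) and Slc38a2. Clk1 encodes a kinase of splicing factors and gave 10.36, 10.60, 10.72 and 10.86 in SC and 10.90, 11.25, 11.04 and 11.15 in CM (limma adjusted p = 0.0622). Zfp946, a zinc finger gene, gave 9.83, 10.14, 10.43 and 10.21 in SC and 10.49, 10.80, 10.67 and 10.72 in CM, also with an adjusted p of 0.0622 by limma. Of the red cell genes, Hbb-bt (0.49), Hba-a2 (0.29) and Hba-a1 (0.22) differed without a call, and for all 3 the highest array was L54 and the lowest L56, both SC.

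Of the 56 called rows, 19 belonged to a known gene, 17 lower and 2 higher in CM, and 37 had no such gene and are counted only. They were dim, with a median level of 6.92 against 7.75 for all rows, although 48 of the 56 were well above background on all 8 arrays. Among the named ones the brightest after Itpka and Spint2 was Raet1e, for a ligand of the natural killer cell receptor NKG2D, which the array design calls Raet1b. It gave 9.90, 9.94, 9.98 and 8.95 in SC and 8.83, 8.72, 8.98 and 8.76 in CM, a fall of 1.95-fold by the fit (limma adjusted p = 0.0191). L58 lay inside the range of the CM arrays, about 1 log2 unit below the other SC arrays.

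Ddn, for dendrin, a protein of the postsynaptic density, gave 8.88, 10.22, 9.52 and 8.95 in SC and 8.10, 8.15, 8.41 and 9.26 in CM (difference -1.04, SE 0.22, limma adjusted p = 0.0407). As for Itpka, O58 was inside the SC range. Ldb3, which encodes a PDZ and LIM domain protein of the muscle Z-disc, gave 8.79, 8.63, 8.48 and 7.65 in SC and 7.49, 7.31, 7.57 and 7.50 in CM (difference -0.98, SE 0.15, limma adjusted p = 0.013). Its CM arrays were below all SC arrays, but the distance to L58 was only -0.18 and the difference with the slide as a fixed term -0.03 (SE 0.19), and another Ldb3 row differed by 0.09 (limma adjusted p = 0.781).

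Ffar3 encodes a receptor for short-chain fatty acids. It gave 8.02, 8.19, 8.14 and 7.24 in SC and 7.57, 7.35, 7.33 and 7.41 in CM, and fell 1.51-fold by the fit (limma adjusted p = 0.0457). L58 was lower than every CM array, so within slide 2 the direction was the opposite one, with a difference of 0.17. Shroom3, an actin-binding gene of cell shape, was at 6.13, 6.04, 6.22 and 5.46 in SC and 5.22, 5.24, 4.97 and 5.45 in CM (difference -0.85). Hbb-bh1, an embryonic globin, fell by 0.81 on the log2 scale. Lipf, a gastric lipase, was called lower, but it was well above background on only 1 of the 4 CM arrays and 3 of the 4 SC arrays.

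Mas1 encodes a receptor for a short form of angiotensin. It was at 5.84, 6.73, 7.39 and 6.92 in SC and 5.20, 5.41, 5.37 and 5.83 in CM, with all CM arrays below all SC arrays, though O58 only just below L52. The fitted difference was -1.44 (SE 0.23, limma adjusted p = 0.0191), a level 2.70-fold lower, and the means differed by -1.27. L58 was among the higher SC arrays, and the CM mean lay below it by a difference of -1.46 within slide 2. With the slide as a fixed term the difference was -1.20 (SE 0.50). Mas1 was highest in L56, the array with the highest cortical markers, and the part of the tissue in its values was not tested. Its row lies at chr17:13033943-13034002 (mm9, minus strand).

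The 2 named genes that rose both act on steroids. Akr1c14, a hydroxysteroid dehydrogenase that makes neurosteroids from progesterone derivatives, gave 5.14, 4.80, 5.07 and 5.75 in SC and 5.89, 5.99, 5.69 and 5.61 in CM (1.60-fold, limma adjusted p = 0.0415). L58 lay within the CM range. Hsd17b1, which turns estrone into estradiol, gave 4.52, 4.02, 3.80 and 4.55 in SC and 4.98, 4.87, 4.97 and 4.89 in CM (limma adjusted p = 0.0444). It was well above background on 0 of the 4 SC arrays and on 2 of the 4 CM arrays. Its signal was thus near the background in both groups, and the size of its rise is uncertain.

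Olfactory receptor genes made up 7 of the called rows, all lower in CM. These receptors detect odorants in the nose, and their probes were mostly dim here. Olfr94 gave 7.54, 7.41, 7.30 and 6.35 in SC and 6.09, 6.18, 6.25 and 5.88 in CM (difference -1.09, SE 0.15, limma adjusted p = 0.0108). Olfr1349 gave 7.49, 7.02, 7.47 and 6.01 in SC and 6.29, 6.08, 6.32 and 6.03 in CM (difference -0.95). Olfr141 gave 6.85, 7.06, 7.14 and 5.87 in SC and 6.72, 5.39, 5.37 and 5.86 in CM (difference -1.15). In all 3 the SC arrays of slide 3 were high and L58 lay with the CM arrays or close to them. Olfr170, at 7.46, 7.50, 7.56 and 6.10 in SC and 6.06 to 6.52 in CM, also had L58 with the CM arrays, and Olfr319 (-0.87) and Olfr549 (-0.79) were called too. Olfr116 was well above background on 0 of the 4 CM arrays and 3 of the 4 SC arrays, so the size of its fall is uncertain. It gave 5.57, 5.77, 5.66 and 4.68 in SC and 4.36 to 4.75 in CM, with L58 inside the CM range.

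L58 was nearer to the CM mean than to the mean of L52, L54 and L56 in 46 of the 52 rows that fell (88.5%), against 54.9% of all rows and 48.9% of the bright rows. Among all 364 rows with a CM mean at least 1.5-fold below these 3 SC arrays, the share was 82.7%, so the called rows stood little above rows picked only by a low CM mean. Over the 52 rows the median difference of CM from the slide 3 SC arrays was -0.865, and from L58 it was -0.098. In 30 of the 52 L58 lay inside the range of the CM arrays. All 4 CM arrays were below all 4 SC arrays in 18 of them. Mas1, Itpka and Spint2 were among the rows with a larger distance from L58, at -1.46, -0.62 and -0.41. A limma fit to slide 2 alone, with L58 as its only SC array, called 14 rows (0.0446%), 0 of them among the 56.

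The same 52 rows were also high on slide 3 in other regions. Their median level was 7.60 to 7.72 in the 3 SC arrays of HT on that slide, 7.72 in the SC striatum array of mouse L58 and 7.66 to 7.97 in the 3 CM frontal cortex arrays, all on slide 3. On slides 1 and 2 it was 6.64 to 7.13 in every array of every region, whichever the diet. In the SC striatum arrays, where no diet differs, the slide 3 array was the highest of 4 in 48 of the 52 rows (92.3%, against 29% of all rows), with a median difference of 0.768. For most of the 52 rows, the effects of diet and of slide cannot be told apart.

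**Figure D3:**
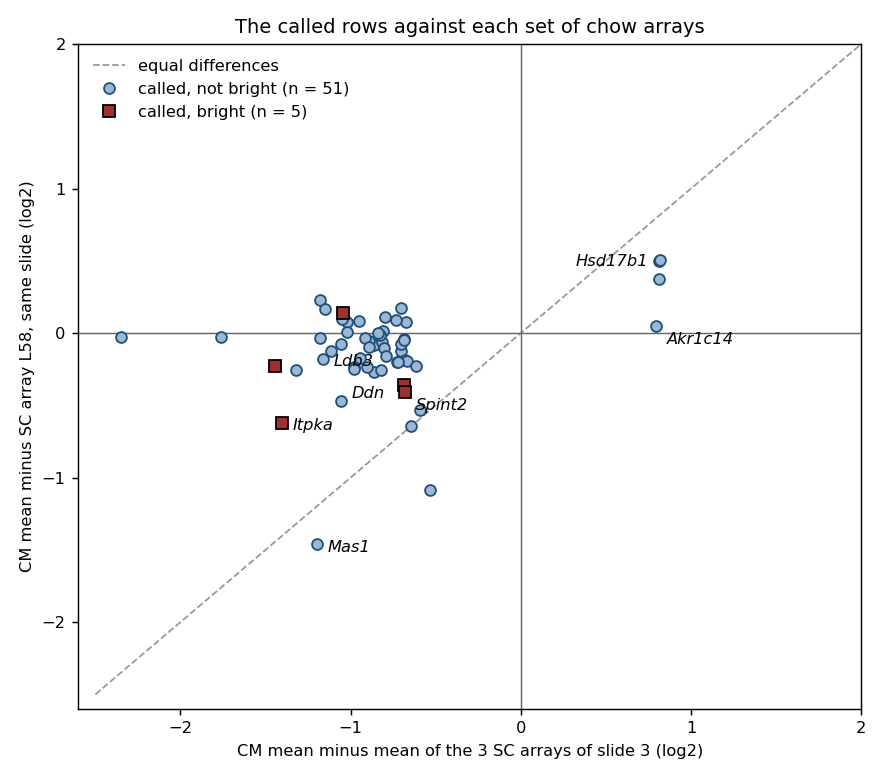
Difference in log2 signal of the CM mean from the 3 SC arrays of slide 3 (x axis) and from the SC array L58 on the slide of the CM arrays (y axis) for the 56 called rows, bright rows as squares. Most rows lie near 0 on the y axis (median -0.098 for the 52 lower rows) and far from it on the x axis (median -0.865), while Mas1 lies near the dashed line of equal differences.

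The peptide genes of the hypothalamus were read as a list of 37, all of which had a row, 16 of them bright. None was called. The fitted level was higher in CM for 20 and lower for 17, with a median difference of 0.043 against 0.010 over all rows. In this and the following lists a gene is read by its brightest row. Over all named genes read in that way, 57.6% were higher in CM, with a median of 0.024. At an unadjusted p under 0.05 stood 1 higher and 3 lower (10.8%, against 13.2% of all rows). The distance between the highest and the lowest of the 8 arrays had a median of 1.6 in this list and 0.5 over all rows, so single animals weighed heavily. The arousal peptide Hcrt gave 16.73, 13.24, 16.65 and 16.61 in SC and 16.60, 16.03, 16.37 and 13.05 in CM, low in L54 and O58, the arrays with the highest striatal markers. The satiety peptide Cck gave 16.23, 16.27, 16.37 and 15.25 in SC and 16.08 to 16.66 in CM, lowest in L58.
The melanocortin pair also depended on the animal. Agrp, the antagonist of the melanocortin receptors, was at 10.89 in L58 and 8.97 in O56 and between 6.53 and 6.94 in the other 6 arrays, and Pomc, the precursor of alpha-MSH, was highest in L58 at 12.80. The CM mean lay below L58 for 31 of the 37 peptide genes, against 15722 of all 31395 rows. The median difference from L58 was -0.698, and that from the slide 3 SC arrays was 0.128. The mean of the hypothalamic markers was highest in L58 (12.59). Most of those markers are peptide genes themselves, Hcrt, Agrp, Pomc, Oxt and Avp among them, so that mean is not a separate measure. The part of the tissue in these values was not tested.

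**Figure D4:**
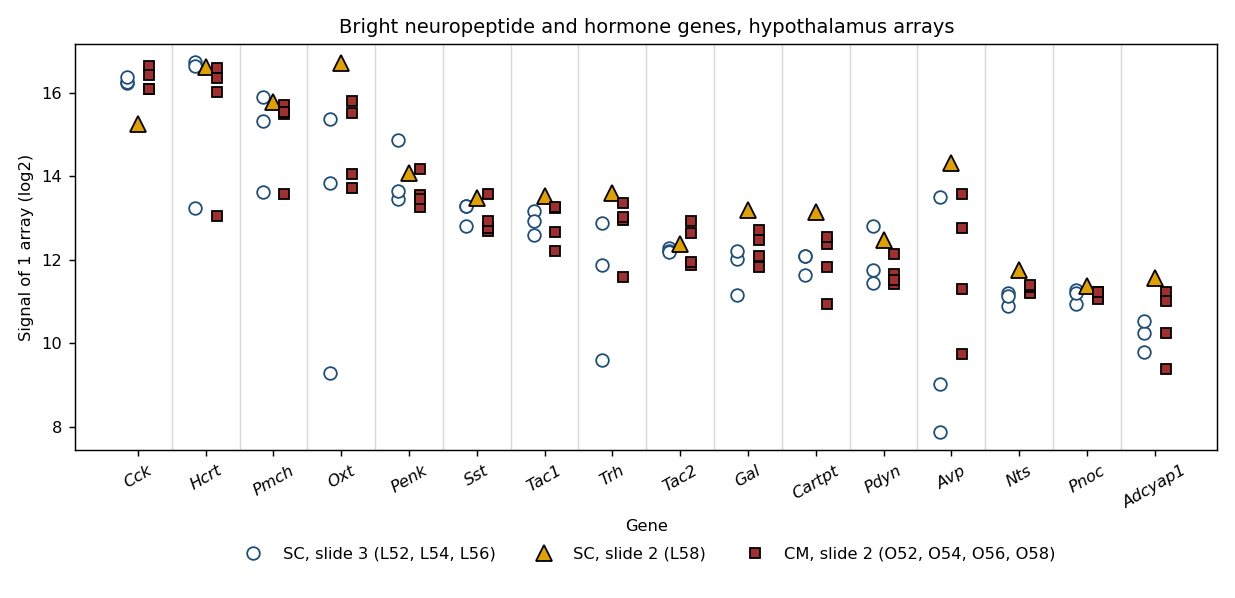
Signal (log2, y axis) of the bright neuropeptide and hormone genes in each HT array, with the SC arrays of slide 3 as open circles, L58 as triangles and the CM arrays as squares. The SC and CM symbols overlap for every gene, and Oxt and Avp span several log2 units within each diet.

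Receptors for appetite signals (34 genes, 4 bright) were higher in CM for 21 and lower for 13, none called, with a median of 0.032. Ntrk2, the receptor of BDNF, gave 12.32, 12.55, 12.60 and 12.53 in SC and 12.29, 12.40, 12.34 and 12.23 in CM, a difference of -0.20 (limma adjusted p = 0.212). The adiponectin receptor gene Adipor2 differed by 0.16 (SE 0.13), and the calcitonin receptor gene Calcr, which responds to amylin, by 0.56 (SE 0.45). The leptin receptor gene Lepr, which is not bright and was chosen after its values had been seen, had all CM arrays below all SC arrays with a difference of -0.22. As for the peptides, 24 of the 34 lay below L58.

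The genes of leptin and insulin signalling (27, 14 bright) included none that was called. A level higher in CM was found for 21 of them, with a median of 0.040. An unadjusted p under 0.05 was reached by 4, all higher (14.8%, against 13.2% of all rows). Irs1, a docking protein of the insulin receptor, gave 8.18, 8.35, 8.02 and 8.24 in SC and 8.62, 8.39, 8.34 and 8.51 in CM (difference 0.27, limma adjusted p = 0.201), and the groups overlapped only between L54 and O56. Rps6kb1, the S6 kinase downstream of mTOR, gave 10.52, 11.00, 11.02 and 10.82 in SC and 11.05 to 11.12 in CM (difference 0.18). Irs2 differed the other way, by -0.19 (SE 0.09), and Akt1 by 0.02 (SE 0.06).

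Genes of inflammation (21 measured of 22) included no call, with 1 gene at an unadjusted p under 0.05 in each direction. The NF-kappaB subunit gene Rela differed by 0.01 (SE 0.08), its inhibitor Nfkbia by 0.09 (SE 0.16) and Tlr2 by 0.19 (SE 0.14). Microglial genes (19) were higher in CM for 15, none called, with a median of 0.063. Siglech differed by 0.03 and the lysosomal Cd68, the farthest, by 0.28 (limma adjusted p = 0.321).

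Of the astrocyte and tanycyte genes (19 measured), 12 were higher and none was called. The water channel gene Aqp4 had all CM arrays above all SC arrays, 11.41, 11.16, 11.33 and 11.53 in SC against 11.63 to 11.74 in CM, with a difference of 0.36 (SE 0.11, limma adjusted p = 0.14). Myelin genes were higher for 15 of 19, with a median of 0.093 and no call. Endothelial and blood genes were higher for 13 of 14 with a median of 0.120, and choroid plexus genes for 6 of 12. Ttr, the thyroxine carrier of the choroid plexus, spread from 8.33 in O56 to 14.02 in L52.

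Among the lists, heat shock genes were the ones with every measured member higher in CM, 13 of 13 (14 listed), with a median of 0.114, and none was called. Over all rows 16628 of 31395 were higher, and over all named genes, each by its brightest row as in the lists, 10771 of 18684 (57.6%). For 4 of the 13, all CM arrays lay above all SC arrays, where 3.74% of all rows and 779 of the 18684 named genes did. An unadjusted p under 0.05 was reached by 3 of the 13 (23.1%, against 13.2% of all rows). Hspd1, the mitochondrial chaperonin, gave 14.22, 14.41, 14.37 and 14.40 in SC and 14.62, 14.57, 14.56 and 14.62 in CM (difference 0.23, SE 0.07, limma adjusted p = 0.116). Dnaja1, a co-chaperone of Hsp70, gave 10.65, 10.82, 10.80 and 10.75 in SC and 11.05, 11.00, 10.99 and 10.97 in CM (difference 0.23, SE 0.06, limma adjusted p = 0.0719). Hsp90aa1 (0.19) and Hspa4l (0.16) were the others without overlap. For these 4 genes L58 lay with the other SC arrays, although with the slide as a fixed term the difference of Hspd1 was 0.01 (SE 0.14) and that of Dnaja1 0.15 (SE 0.13). In the list the CM mean was above L58 for 12 of the 13, by a median of 0.165, and over all rows for 15673 of 31395.

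The genes of endoplasmic reticulum stress (23) were higher for 18 with a median of 0.082, none called. Hsp90b1, the Hsp90 of the endoplasmic reticulum, gave 13.66, 13.93, 14.07 and 14.02 in SC and 14.09, 14.28, 14.21 and 14.18 in CM (difference 0.25, SE 0.08, limma adjusted p = 0.182). Sel1l, of the degradation machinery there, gave 11.03, 10.91, 11.03 and 11.02 in SC and 11.09, 11.14, 11.18 and 11.24 in CM (difference 0.16). In both genes the groups did not overlap. Hspa5, the chaperone BiP, differed by 0.14 (SE 0.10).

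Lipid and sugar genes held no call. Cholesterol synthesis was higher for 17 of 26 (median 0.053), fatty acid synthesis and oxidation for 20 of 31 (median 0.053), with 0 of the 31 at an unadjusted p under 0.05, and glucose uptake and glycolysis for 15 of 23 (median 0.026). Hmgcs1, an early enzyme of cholesterol synthesis, differed by 0.10 (SE 0.09), the desaturase gene Scd2 by 0.12 (SE 0.07) and Gapdh by 0.02 (SE 0.05). For cholesterol synthesis the list moved with the choice of SC arrays, with a median difference of 0.034 from slide 3 and of -0.145 from L58.

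Immediate early genes, switched on by neuronal activity, were lower in CM for 15 of 24 with a median of -0.075 and no call. An unadjusted p under 0.05 downward was reached by 5 of the 24, and by 6.97% of all rows. In 4 of these 5 L58 was nearer to the CM mean than to the other SC arrays, as in 1363 of all 2188 such rows. Jun gave 13.08, 12.98, 13.02 and 12.90 in SC and 12.82, 12.70, 12.84 and 12.82 in CM, without overlap (difference -0.21, limma adjusted p = 0.35). Egr4 gave 8.93, 9.78, 8.23 and 7.89 in SC and 7.62, 7.72, 7.65 and 8.99 in CM (difference -0.75), again high in L54 and O58. Clock genes were higher for 15 of 23, none called, and Csnk1d, a kinase of the period proteins, differed by 0.15 (SE 0.07).

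Transmitter genes were also without calls. GABA and glutamate genes were higher for 19 of 34, with 0 at an unadjusted p under 0.05, and monoamine and histamine genes were lower for 17 of 25. Slc17a6, the vesicular glutamate transporter of the diencephalon, gave 12.80, 13.12, 13.06 and 12.90 in SC and 13.22 to 13.33 in CM, without overlap (difference 0.27, SE 0.33).

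In the renin and angiotensin list Mas1 was the 1 called of 14 genes (7.14%, against 0.178% of all rows), and 9 of the 14 were higher. Among steroid receptors and enzymes Akr1c14 and Hsd17b1 were called of 21 (9.52%), and Cyp11a1, the enzyme that starts steroid synthesis from cholesterol, differed by 0.62 (SE 0.29, limma adjusted p = 0.367). The lists were chosen with earlier results of these data known, so the shares called in the renin and steroid lists do not measure an excess. Among hypothalamic transcription factors (20 measured of 21) 13 were higher and none was called. Lhx6 gave 10.32, 10.63, 11.08 and 11.25 in SC and 10.05 to 10.69 in CM, a difference of -0.50 (limma adjusted p = 0.222). The CM mean lay below L58 for 19 of these 20, against 15722 of all 31395 rows.

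Ribosomal protein genes moved little. Of 86, 53 were lower, with a median of -0.013, a smallest and largest difference of -0.14 and 0.31, and 0 at an unadjusted p under 0.05. All CM arrays were below all SC arrays for 8 of them, where 3.03% of all rows did so. The CM mean was below L58 for 73, against 15722 of all 31395 rows. Respiratory chain genes were higher for 64 of 89 (median 0.034) and above L58 for 78, where 15673 of all 31395 rows were, without a call. Atp5b, the catalytic subunit of ATP synthase, gave 17.32, 17.20, 17.36 and 17.28 in SC and 17.41 to 17.52 in CM (difference 0.17, SE 0.06, limma adjusted p = 0.248). Proteasome genes were higher for 25 of 37.

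Histone genes were lower in CM for 41 of 59, with a median of -0.079 and none called. H4c11, not bright, was the only member with an adjusted p under 0.05, but it stayed under 1.5-fold. Its difference was -0.57 (SE 0.12, limma adjusted p = 0.0471), and its CM mean differed from L58 by -0.11. An unadjusted p under 0.05 downward was reached by 10 of the 59, and by 6.97% of all rows. In 7 of these 10 L58 was nearer to the CM mean than to the other SC arrays. H4c12 gave 12.68, 12.90, 12.72 and 12.50 in SC and 12.43, 12.25, 12.38 and 12.23 in CM, without overlap (difference -0.40, limma adjusted p = 0.0608). H1f4, a linker histone, gave 12.98, 12.94, 12.57 and 11.96 in SC and 11.88 to 12.27 in CM, with L58 inside the CM range (difference -0.62, limma adjusted p = 0.136). Potassium channel genes were evenly split, 46 of 87 higher, and none was called.

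The olfactory receptors as a whole (330 genes, 127 of them well above background on all 8 arrays and 2 bright) were lower in CM for 225, with a median of -0.115. The 7 called were 2.12% of the list, against 0.166% of all rows called lower. An unadjusted p under 0.05 was reached by 70 downward and 8 upward (23.6% together, against 13.2% of all rows). In 56 of the 70, and in all 7 called, L58 was nearer to the CM mean than to the other SC arrays. The median difference of the list was -0.133 from the slide 3 SC arrays and 0.043 from L58. The receptor gene Olfr544, 1 of the 2 bright ones, gave 12.33, 12.28, 12.18 and 12.02 in SC and 11.89, 11.73, 12.05 and 11.82 in CM (difference -0.33, limma adjusted p = 0.123). Olfr173, also bright, differed the other way, with all CM arrays above all SC arrays. Vomeronasal receptors (97) were lower for 60 with a median of -0.057, also -0.077 from slide 3 and 0.021 from L58, and none was called.

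**Figure D5:**
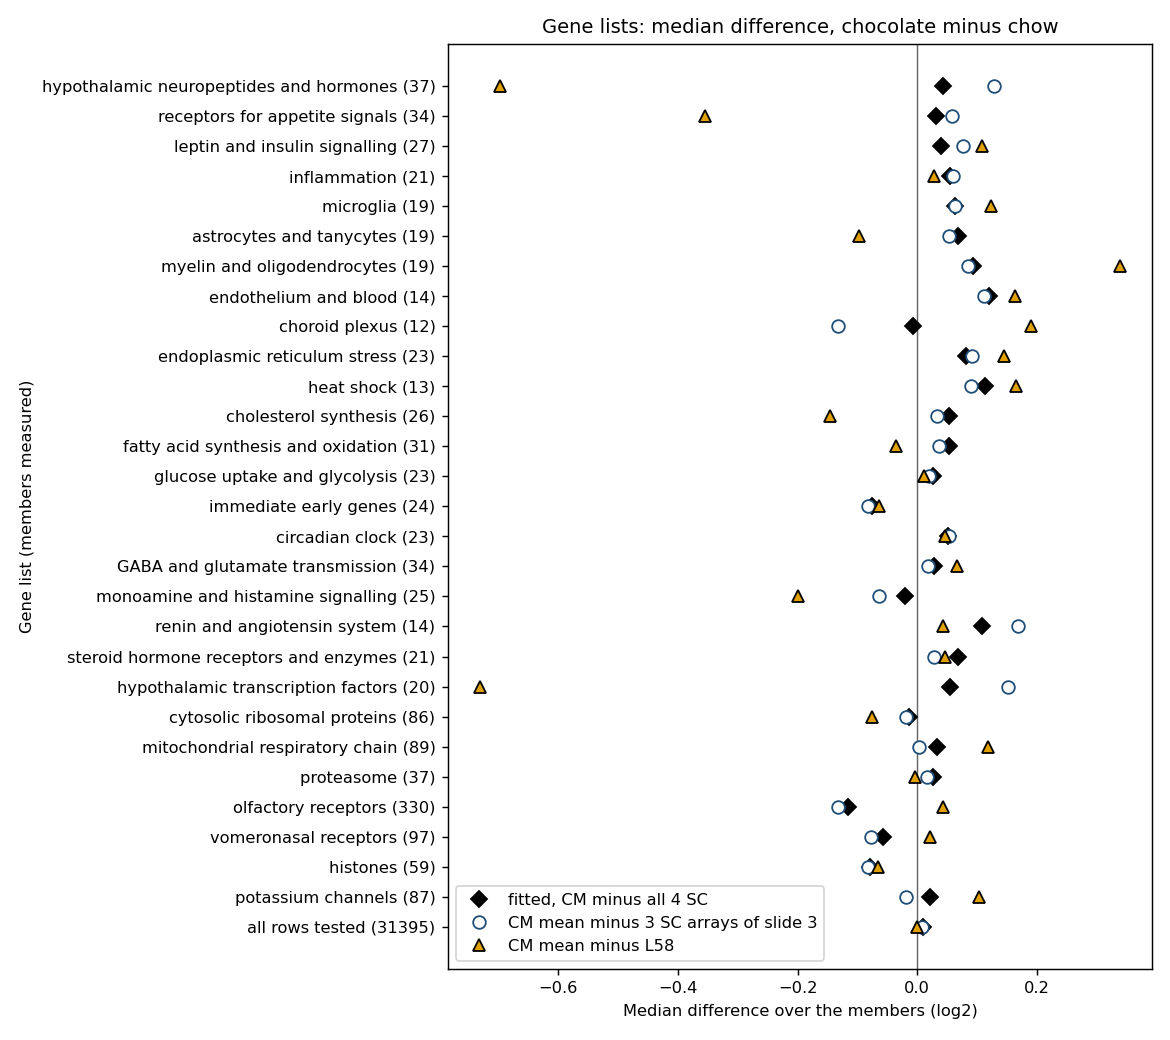
Median difference in log2 signal, CM minus SC, over the measured members of each gene list, as fitted to all SC arrays (diamonds), against the 3 SC arrays of slide 3 (circles) and against L58 (triangles). The fitted medians lie between -0.115 and 0.120, and the triangles of the peptides (-0.698) and hypothalamic transcription factors (-0.731) lie far to the left of their circles.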

How the data were processed

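RNA (100 ng) of 8 HT samples was hybridized to one-color Agilent arrays. Spot intensities were read by the authors with Feature Extraction 10.7.3.1 and deposited together with log2 values, which the authors made by normexp background correction, quantile normalization, a filter against negative controls on at least 4 arrays and averaging by transcript identifier. Rebuilt from the intensities, the log2 values of 31395 rows matched the deposited log2 values to within 5e-09. Following the authors' code, 6 group means were fitted to all 23 arrays in R 4.3.3 with limma 3.58.1 and statmod 1.5.0, with array weights by the gene-by-gene estimator, the mouse as a random block, eBayes and Benjamini-Hochberg adjusted p-values, but without the slide.

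Genes were named through the RefSeq gene table (20212 of 31395 rows matched). Named are called rows of known genes, the 8 largest bright differences each way, the 5 largest bright rows each way whose groups do not overlap, and from each gene list the 2 brightest members, the largest difference among members well above background on all 8 arrays, and members that were called or were bright with groups that do not overlap. The members and lists were chosen with earlier results of these data known. The arrays came from separate mice. The number of arrays limits the precision. Alternatives covered the slide, weights, blocks, filter, background, normalization, threshold and each array left out. Some genes that the rule names are not reported here. The fit was tested on simulated data without slide differences, so that test cannot show how the fit behaves when diet and slide overlap. It recovered 94.5% of 200 changes of 1.5 log2 units and 64.5% of 200 changes of 0.75, with 8 and 5 false calls.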

Additional observations from a re-analysis of the deposited data

Results flagged for a closer look

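In 278 groups of 4 arrays (139 named rows, SC and CM apart), 28 had an array far from the other 3 of its diet, by Dixon's criterion, which chance alone meets in about 1 group in 20. The CM array O58 was high for the forebrain genes Itpka (11.81), Arpp21 (11.64), Crym (12.23), Egr4 (8.99) and Kcnh3 (10.57) and low for Hcrt (13.05), Git2 (11.9) and Rbfox3 (10.46). The SC array L54, with the highest striatal markers, was far off for Hcrt (13.24, low), Drd1 (9.06, high) and Sel1l (10.91, low). The SC array L58, the one on the CM slide, was low for Raet1e (8.95), Olfr319 (7.35), Olfr549 (7.09), Olfr170 (6.1), Abhd12b (9.57), Cck (15.25) and Adipor2 (14.13) and high for H3c4 (12.69). L56 was high for Synpo (12.01), and L52 for Rela (12.7) and Rpl12 (14.82). Among the CM arrays O56 was low for Hspa4l (13.31), Atp6ap2 (13.06), H2ac18 (12.37) and Kcnj10 (15.13), and O54 was high for Acly (14.08) and low for Jun (12.7). The part of the slide and of the tissue in these values was not tested.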

How the results depend on the processing

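The count of HT called probes was 56, and that of rows at HT adjusted p under 0.05 was 135. Both came to 0 without array weights, with only the 8 HT arrays in the fit (3980 rows at an unadjusted p under 0.05), with the slide as a fixed term and with the slide as the random block (1928). They were 8 and 10 without the filter on low values, 14 and 14 with only slide 2 (0 of the 14 among the 56), and 8 and 8 without L54 and O58, an alternative chosen after seeing the data (4 of the 8 among the 56). They were 187 and 277 with the processed signal scaled to the 75th percentile, 382 rows passed the adjusted p with a background offset of 50 and 252 among rows well above background on all 8 arrays, and 106 rows were called at an adjusted p under 0.1. Leaving out each array in turn gave 0 to 195 called rows and 0 to 434 at the adjusted p, with 0 without O54 and 195 without L58. Array weights by REML and the fit without the mouse block gave 57 and 56 called rows. With only slide 2 the log2 differences of Olfr319 (0.01), Ffar3 (0.17), Olfr549 (0.08), Olfr170 (0.23) and Olfr1349 (0.16) were upward, and with the slide as a fixed term those of Ffar3 (0.06) and Olfr549 (0.09). The cause of these changes was not tested, and with 1 SC array on slide 2 the level of chow there has no replicate.

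SC and CM mice with the same number share only that number. The correlation of their deviations from the group means was 0.136, -0.321, -0.068 and -0.223, and only for number 52 was the best match the array of the same number. With the number as a replicate block 45 rows were called, 42 of them among the 56, and 93 had an adjusted p under 0.05.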
